A study of Mus musculus with 24 samples.

Results

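Nuclear RNA of Mettl3 KO mouse embryonic stem (ES) cells was compared with that of RBC, the line they were derived from, by RNA-seq. The members are all autosomal genes with enough reads for the test, 16317 of the 17021 genes tested and of the 47937 in the deposited count table, which holds 43008 autosomal genes. They were chosen by chromosome and by edgeR's filter on low counts, and no measured difference between the lines was used. RBC cells (strain 129/Sv x C57Bl6) carry BirA-V5 and Cre-ERT2 at Rosa26, and the Mettl3 KO cells are 1 clone, 2c4d, with the same insertions and strain, so both groups share the transgenes. Both lines grew with Serum Replacement and LIF on gelatin without feeder cells. The clone came to the study from elsewhere, and how its Mettl3 gene was disrupted is not given in the sources used here. Each line has 2 libraries, which the labels number but do not tie to separate cultures, so p-values measure the spread between these libraries, which may be technical. The labels call the material total RNA and the study's methods nuclear RNA. The table also holds wild-type WT26 cells of the same strain and a Mettl14 KO clone (A10) that was made from them by genome editing. These 4 libraries entered the fit for the estimate of the spread, and the Mettl14 KO change over WT26 is set beside some results below.

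METTL3 is the catalytic subunit of the nuclear complex that methylates adenosines in RNA to m6A, and METTL14 is the partner that holds the RNA. The mark is placed while a transcript is made, is read by YTH domain proteins, and is best known for shortening the life of messenger RNAs. In ES cells the complex is known above all for its part in the timely loss of the pluripotency programme.

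In these libraries the 4 totals lay between 11783953 and 13743181 reads on genes, and RBC replicate 1 stood apart. It held 98173 normalized counts of Lars2 and 394785 of Gm42418, 2 genes known to collect reads of ribosomal RNA and of its fragments, where the other 3 libraries held 400.9 to 6765 and 109895 to 154295. Normalized counts are reads divided by DESeq2's size factor of each library, and every level below is on that scale. Mitochondrially encoded genes took 4.22% and 2.75% of the reads in RBC and 1.82% and 1.61% in Mettl3 KO. Mettl3 itself had 928 and 979 normalized counts in the RBC libraries against 880.0 and 821 in the Mettl3 KO libraries, a log2 fold change (Mettl3 KO over RBC) of -0.16 ± 0.07 (SE, n = 2 libraries per line) and an adjusted p of 0.0588 by edgeR's quasi-likelihood test (0.0462 without Mettl3 KO replicate 1). All 4 libraries thus kept reads over the gene at a similar level, and a total over the gene, which also overlaps Tox4, does not check the label. Mettl14 had 436 and 412 in RBC against 389.6 and 402 in Mettl3 KO (log2 fold change -0.10 ± 0.08, adjusted p 0.340).

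The libraries carried the markers of ES cells. Of the 16 ES cell markers, none was at 3 reads or fewer in any library, and their summed level was 43865 and 44122 in RBC against 27831 and 28553 in Mettl3 KO. Pou5f1, the core pluripotency factor, had 3249.8 and 3362 normalized counts in the RBC libraries against 2069.7 and 2306 in the Mettl3 KO libraries, and Nanog had 1967 and 2036 in RBC against 1722 and 1739.5 in Mettl3 KO. Of 13 fibroblast or feeder markers, 5 were at 0 in all 4 libraries, and the sum over the list was 183.9 and 191.3 in RBC against 90.4 and 98.7 in Mettl3 KO, with Thy1 and Acta2 the highest in RBC. The summed levels of the trophoblast, primitive endoderm, epiblast or primitive streak, and neural lists were lower in both Mettl3 KO libraries than in both RBC libraries, by less than that of the ES cell list. The share of these cell types in the cultures was not tested.

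A gene is said below to have risen, fallen or passed the test where its adjusted p was 0.05 or lower. It is called where its log2 fold change was also larger than 1 in size. Among the autosomal genes tested, 24.9% rose and 28.4% fell, 5.98% were called higher and 7.31% called lower, and the median log2 fold change was -0.005. These shares are the background against which each group is read. The groups described were picked as those that departed most from it, with some near it, so they are not an unselected sample. The groups do not overlap (both libraries of one line above both of the other) for 75.5% of the genes, so that a lack of overlap by itself singles out few of them. Without RBC replicate 1, 3362 genes rose and 4092 fell, against 4060 and 4628 with it, and 77 of 79 ribosomal protein, 20 of 25 ER folding, 36 of 51 actin and 8 of 10 laminin genes fell and 21 of 46 potassium channels rose. With all libraries these counts were 77, 20, 41, 10 and 26. The SD over genes of the log2 ratio between the 2 libraries was 0.278 in RBC and 0.229 in Mettl3 KO. Scaling matters for the balance of directions. With DESeq2's size factors 46.7% of the genes that passed the test rose, and with scaling by library size alone 63.4% did, since the median of all genes then moved to 0.146. Group medians below are to be read against that shift, which would raise each of them by about the same amount.

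The same lines were also sequenced as the input of an m6A immunoprecipitation, in 2 further libraries each. There 35 autosomal genes were called higher and 115 lower, 0.218% and 0.717% of the 16045 tested. Of the genes called higher in RNA-seq and tested in the input libraries, 893 of 948 (94.2%) had the same sign there, and of those called lower 1087 of 1149 (94.6%). For all genes the share was 79.6%. The input call was shared by 34 of the genes called higher, which is 97.1% of the input calls but 3.59% of the RNA-seq calls, and by 106 called lower, 92.2% and 9.23%. The input libraries therefore repeated the direction of most calls and called few of them.

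**Figure D1:**
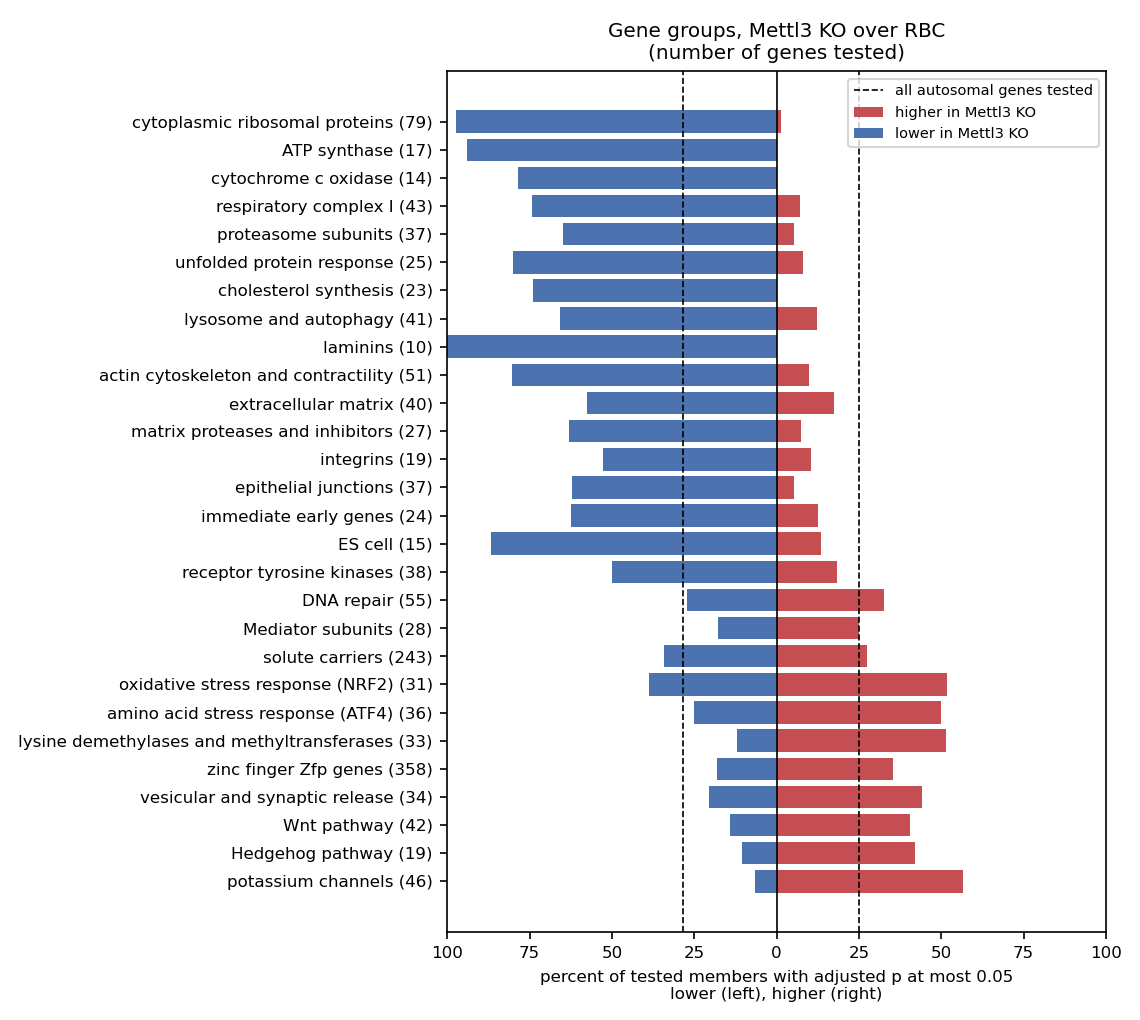
Share of the tested members of 28 gene groups that rose (right, red) or fell (left, blue) in Mettl3 KO over RBC (adjusted p 0.05 or lower), on an axis in percent. Dashed lines mark the shares over all autosomal genes tested, 24.9% and 28.4%. Ribosomal, respiratory, secretory, matrix and actin groups lie far left of the line, DNA repair and Mediator lie near it, and potassium channels lie far right.

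Genes for the protein synthesis machinery fell together. Of 79 tested genes for cytoplasmic ribosomal proteins, 77 fell and 1 rose (none without RBC replicate 2), and the median of their log2 fold changes was -0.79 (-0.67 in the input libraries). Most members moved by less than 2-fold, and 11 were called lower. Their summed level was 391692 and 418923 in RBC against 229750 and 263124 in Mettl3 KO, and the lines did not overlap. Rplp0, a protein of the ribosomal stalk, had 18036 and 18277 normalized counts in the RBC libraries against 9514 and 10177 in the Mettl3 KO libraries (log2 fold change -0.88 ± 0.05, adjusted p 2.74e-10). The lines were far apart, and their libraries close together. Rps18, a small subunit protein, had 8054 and 8647 in RBC against 3643 and 4229 in Mettl3 KO (log2 fold change -1.09 ± 0.06, adjusted p 1.99e-10). The largest fall was that of Rpl39l, a paralog of Rpl39 known from male germ cells and ES cells, with 198 and 219.8 in RBC against 37.4 and 51.4 in Mettl3 KO (log2 fold change -2.25 ± 0.17, adjusted p 3.73e-09). Ribosomal protein genes have many processed pseudogenes, so part of their reads may be split between copies. Among 510 tested processed pseudogenes of any parent, 117 fell and 66 rose, with a median of -0.21. 

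In the Mettl14 KO clone the ribosomal genes had a median of -0.18 against WT26. The difference between the knockouts passed its own test for 68 of 79 genes, all lower in Mettl3 KO, where the background is 22.2% lower and 20.7% higher (43% of genes in all). Proteins that work beside the ribosome moved less. Of 51 translation initiation factors 24 fell and 10 rose (median -0.13), which scaling by library size turned to 17 and 19. Of 37 aminoacyl tRNA synthetases 20 fell and 3 rose (median -0.20, and 11 rose with that scaling). Lars2, which marked RBC replicate 1, is counted among these 20 on account of that library, without which it rose (log2 fold change 2.86, adjusted p 0.0322). The 77 genes for mitochondrial ribosomal proteins had a median of -0.16, with 34 lower and 15 higher, or 21 and 20 with scaling by library size. The rises numbered 8 without RBC replicate 1 or Mettl3 KO replicate 2 and 9 without RBC replicate 2.

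Nuclear genes for the respiratory chain fell as well. The chain passes electrons from complex I through cytochrome c reductase to cytochrome c oxidase, and ATP synthase uses the gradient it builds. Of 43 tested genes of complex I 32 fell and 3 rose (median -0.50), of 8 of cytochrome c reductase 7 fell and none rose (-0.61), of 14 of cytochrome c oxidase 11 fell and none rose (-0.89), and of 17 of ATP synthase 16 fell and none rose (-0.77). Cox4i1, the ubiquitous form of oxidase subunit 4, had 8559.6 and 9179 normalized counts in the RBC libraries against 3458 and 3921 in the Mettl3 KO libraries (log2 fold change -1.27 ± 0.06, adjusted p 1.27e-11). Cox5b had 4536 and 4919 in RBC against 1726 and 2016 in Mettl3 KO (log2 fold change -1.34 ± 0.07, adjusted p 1.84e-11). Both oxidase subunits were below the RBC range by more than 2-fold in each knockout library. The largest change of the family was in Cox7b2, a form known from testis, at 31.0 and 30.6 in RBC against 4.35 and 3.02 in Mettl3 KO (adjusted p 4.88e-06), and it was higher by 3.07 on the log2 scale in Mettl14 KO over WT26 (test of the difference, adjusted p 3.54e-08). In complex I the largest falls were in Ndufb4 (-1.25 ± 0.14), Ndufb6 and Ndufa7. Among ATP synthase genes Atp5o had 1748 and 2002 in RBC against 922 and 1020.3 in Mettl3 KO (log2 fold change -0.95 ± 0.07, adjusted p 1.30e-09), and all but 1 of the 17 passed the test.

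The mitochondrially encoded share of reads, given above, was also lower in both Mettl3 KO libraries, and in the input libraries it was 8.38% and 3.43% in RBC against 4.69% and 2.51% in Mettl3 KO, which overlap. Its part in the result was not tested. Of 26 genes of the citric acid cycle 16 fell and 2 rose, none by more than 2-fold (median -0.23), and of 26 of glycolysis 13 fell and 4 rose (median -0.18), or 9 and 9 with scaling by library size. Fatty acid oxidation showed no lean, with 6 of 27 genes lower, 5 higher and a median of 0.02.

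Groups that fold and degrade proteins leaned the same way. Of 37 genes for proteasome subunits 24 fell and 2 rose, or 7 with scaling by library size, and none was called (median -0.30). The chaperonin TRiC, which folds actin and tubulin, had 6 of 7 genes lower and none higher (median -0.49). Of 27 genes for heat shock proteins and other chaperones 17 fell and 5 rose (median -0.40), or 3 rose without RBC replicate 1, RBC replicate 2 or Mettl3 KO replicate 2.

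The endoplasmic reticulum (ER) folding machinery fell more. This is the set of chaperones and disulfide isomerases that the unfolded protein response induces, in part through the ER stress response element, a CCAAT box and a CCACG box set 9 bases apart. Of 25 tested genes 20 fell, 7 of them called, and 2 rose (1 with any library but Mettl3 KO replicate 1 left out), with a median of -0.65 (-0.59 in the input libraries). Calr, the calcium-binding chaperone calreticulin, had 13148 and 13424 normalized counts in the RBC libraries against 5212 and 5990.1 in the Mettl3 KO libraries (log2 fold change -1.25 ± 0.06, adjusted p 1.90e-11). Hspa5, the master ER chaperone BiP, had 12247 and 12956 in RBC against 5876 and 6531 in Mettl3 KO (log2 fold change -1.02 ± 0.06, adjusted p 1.36e-10). For both, the knockout libraries lay about 2-fold below the RBC libraries. Pdia6, a disulfide isomerase, had 5439 and 5526 in RBC against 2289 and 2421 in Mettl3 KO (log2 fold change -1.22 ± 0.05, adjusted p 2.38e-12). Hsp90b1 had 10558 and 10589.8 in RBC against 4972 and 5300.1 in Mettl3 KO (log2 fold change -1.04 ± 0.06, adjusted p 6.11e-11). The transcription factors of the response did not all follow. Atf6 fell (-0.44 ± 0.05). Xbp1 rose by little (0.20 ± 0.07), and without RBC replicate 1, RBC replicate 2 or Mettl3 KO replicate 2 it did not pass (adjusted p 0.0549, 0.113 and 0.192). Ddit3, which marks prolonged stress, had 109 and 98.6 in RBC against 94.8 and 95.7 in Mettl3 KO (adjusted p 0.517). Herpud1, which helps clear misfolded proteins from the ER, had 323 and 280.0 in RBC against 285 and 344 in Mettl3 KO (adjusted p 0.646).

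Promoters of 22 of the 25 genes were matched by symbol in RefSeq sequences of GRCm38.p6, each 250 bases before to 50 bases after an annotated start. The letters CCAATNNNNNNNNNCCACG were searched on both strands, and the windows of the 5 genes with the largest falls among those with a match are shown because they carry the letters the pathway is known for. The capitals are the fixed letters of the element, the sequences are in the sense of the gene, and a match on the other strand reads CGTGG and ATTGG. None overlapped another motif searched.
Calr, 8:84847070-84847098, minus strand: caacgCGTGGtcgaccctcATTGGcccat
Pdia6, 12:17266486-17266514, plus strand: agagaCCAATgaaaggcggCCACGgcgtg
Dnajc3, 14:118937822-118937850, plus strand: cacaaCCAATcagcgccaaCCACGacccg
Hsp90b1, 10:86705528-86705556, minus strand: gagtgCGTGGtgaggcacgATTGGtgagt
Hspa5, 2:34772020-34772048, plus strand: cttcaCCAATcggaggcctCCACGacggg

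A match was found for 9 of the 22 genes (40.9%) and for 37 of 27025 genes with a promoter sequence (0.137%). Of the 9 genes with a match 8 fell and none rose, with a median of -1.02. Syvn1 was the exception, at 467 and 412 in RBC against 396 and 359.6 in Mettl3 KO (adjusted p 0.0770, and 0.0433 without RBC replicate 2). Of the 13 without a match 9 fell and 2 rose, with a median of -0.41. The list holds genes known to be induced by the response, so its larger share comes with the list and not from these data. A match describes the letters of a window and is not a binding site.

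Most genes of cholesterol synthesis fell. Of 23 tested genes 17 fell and none rose (median -0.43, -0.31 in the input libraries), or 5 rose with scaling by library size. Pmvk, a kinase of the mevalonate pathway, had 521 and 507 normalized counts in the RBC libraries against 213 and 222 in the Mettl3 KO libraries (log2 fold change -1.24 ± 0.09, adjusted p 2.66e-09). Mvd, which makes isopentenyl diphosphate in the same pathway, had 523 and 515 in RBC against 251 and 262 in Mettl3 KO (log2 fold change -1.02 ± 0.08, adjusted p 7.86e-09). Msmo1, a sterol demethylating oxidase, had 5199 and 5374 in RBC against 2528 and 2715 in Mettl3 KO (log2 fold change -1.01 ± 0.05, adjusted p 3.02e-11). In all 3 both knockout libraries lay below both RBC libraries. Srebf2, the factor known to drive these genes, had 2099 and 2127 in RBC against 2233 and 2241 in Mettl3 KO (log2 fold change 0.08 ± 0.04, adjusted p 0.118). Letters of a sterol regulatory element (ATCACNNCAC) were found in 1 of 15 matched promoters, that of Msmo1, and in 0.821% of all.

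Lysosomal and autophagy genes showed a like pattern, with 27 of 41 lower and 5 higher (median -0.45). Lamp1, the most abundant lysosomal membrane protein, had 12360.0 and 12840.4 in RBC against 5286 and 6055 in Mettl3 KO (log2 fold change -1.15 ± 0.06, adjusted p 5.11e-11). Ctsc, the protease cathepsin C, had 364 and 368 in RBC against 109 and 107 in Mettl3 KO (log2 fold change -1.76 ± 0.10, adjusted p 8.63e-11). Tfeb, the factor known to induce lysosomal genes, had 282 and 292 in RBC against 230.4 and 268 in Mettl3 KO and did not pass the test (adjusted p 0.121, and 0.0375 without Mettl3 KO replicate 2). The difference between the knockouts passed for 23 genes lower and 9 higher in Mettl3 KO. Of 19 genes of the vacuolar ATPase, which acidifies lysosomes, 10 fell and 2 rose, or 1 rose without RBC replicate 2.

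Uptake of iron and lipoproteins included large single changes. Of 25 tested genes 13 fell and 4 rose. Tfrc, the transferrin receptor, had 17817 and 19270.0 normalized counts in the RBC libraries against 7566 and 8122 in the Mettl3 KO libraries (log2 fold change -1.24 ± 0.06, adjusted p 9.11e-12). It was among the most highly counted genes of the table, and the lines were more than 2-fold apart. Lrp2, the scavenger receptor megalin, had 3462 and 3364 in RBC against 1704 and 1680.1 in Mettl3 KO (log2 fold change -1.01 ± 0.05, adjusted p 9.57e-12). Trf, the transferrin that Tfrc binds, had 42.5 and 40.4 in RBC against 14.8 and 6.04 in Mettl3 KO (log2 fold change -1.94 ± 0.35, adjusted p 1.68e-04).

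**Figure D2:**
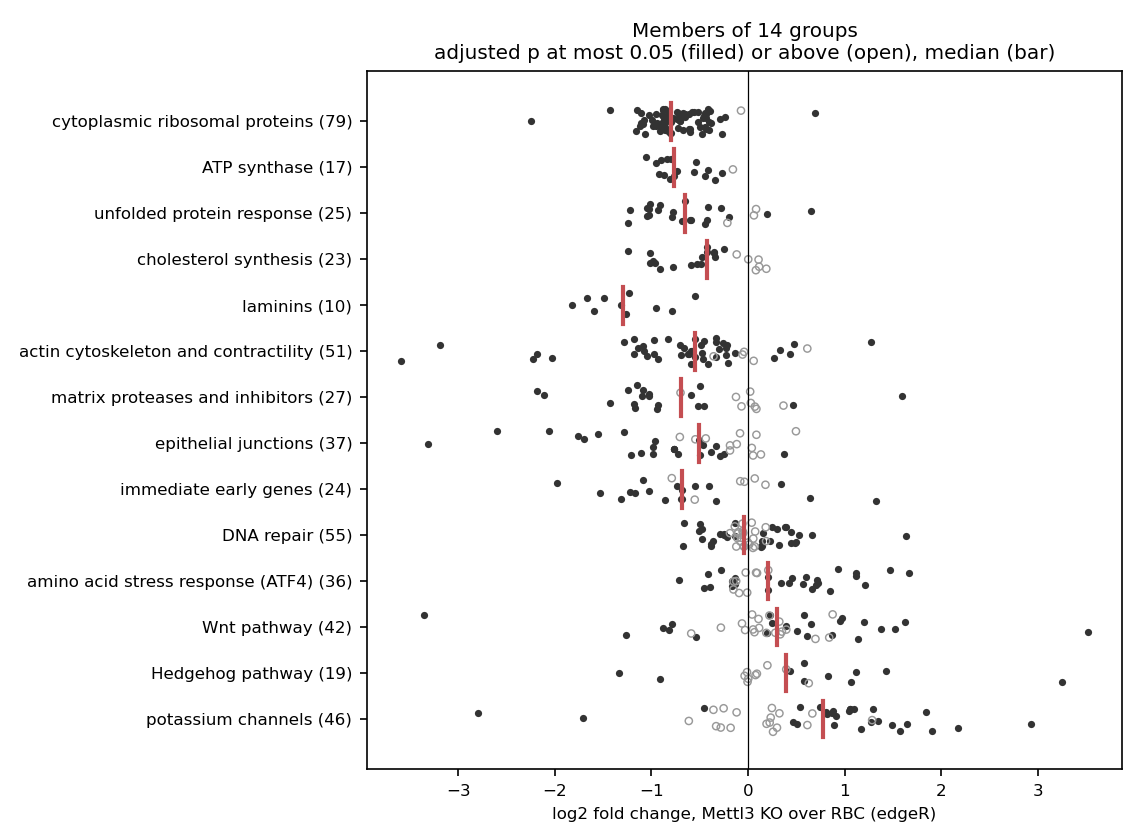
Log2 fold change (Mettl3 KO over RBC, edgeR) of each tested member of 14 groups, filled where the adjusted p was 0.05 or lower and open where it was above. Red bars are group medians, and members at or under 3 reads in each library of a line are left out. Ribosomal protein genes form a narrow cloud about -0.79, laminins centre on -1.29, and potassium channels centre on 0.78.

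The actin cytoskeleton was among the most affected groups. Of 51 tested genes 41 fell, 12 of them called, and 5 rose (median -0.54, -0.34 in the input libraries). The largest falls were in genes of the smooth muscle type. Tagln, the actin-bundling protein transgelin, had 144 and 151 normalized counts in the RBC libraries against 13.0 and 11.1 in the Mettl3 KO libraries (log2 fold change -3.59 ± 0.23, adjusted p 4.97e-10). Acta2, smooth muscle actin, had 48.3 and 47.3 in RBC against 5.22 and 5.04 in Mettl3 KO (log2 fold change -3.19 ± 0.37, adjusted p 9.62e-07). Both genes were low in RBC and had few reads in Mettl3 KO, and Tagln, whose annotation overlaps Pcsk7, changed by -0.31 in the input libraries. Among abundant members, Flnc, the actin crosslinker filamin C, had 2760.1 and 2557 in RBC against 633 and 671 in Mettl3 KO (log2 fold change -2.03 ± 0.07, adjusted p 2.72e-13). Actb, cytoplasmic beta-actin, had 16888 and 16916 in RBC against 11111 and 12066 in Mettl3 KO (log2 fold change -0.54 ± 0.05, adjusted p 1.32e-07). Parva, an adaptor at integrin adhesions, rose to 72.2 and 66.5 from 29.9 and 27.6 (log2 fold change 1.27 ± 0.25, adjusted p 2.86e-04). Acta2 also belongs to the fibroblast list whose sum fell, as given above, and the part of such cells in the result was not tested.

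The promoters of many contractile genes carry the CArG box, bound by serum response factor (SRF). It was searched on both strands, as CC and GG with any 6 of A and T between. The windows of 4 genes are shown, with the box in capitals, since these abundant or strongly changed members carry it within the promoter window. None overlapped another motif searched, and all 4 lie in the sense of the gene.
Myl9, 2:156775295-156775320, plus strand: agcagaggCCTAATAAGGccgggctg
Myl6, 10:128493042-128493067, minus strand: tcttacttCCTTATATGGgcaggacc
Vcl, 14:20929163-20929188, plus strand: cactatgcCCTTATAAGGagcgcccc
Actg1, 11:120348568-120348593, minus strand: aaagatcgCCATATATGGacatgttc

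A box was found in 6 of 45 matched promoters of the group (13.3%) and in 1.81% of all. Contractile genes are known for the box, so this larger share comes with the list and not from these data. Of these 6 genes 5 fell and 1 rose, with a median of -1.18, and of the 39 without one 31 fell and 3 rose, with a median of -0.48. Vcl, the adhesion protein vinculin, had 4168 and 4247 in RBC against 2007 and 1968 in Mettl3 KO (log2 fold change -1.08 ± 0.04, adjusted p 2.09e-12). Actg1, cytoplasmic gamma-actin, was the member that rose, by a small amount, with 2841 and 2713 in RBC against 3251 and 3423 in Mettl3 KO (log2 fold change 0.27 ± 0.05, adjusted p 3.38e-04). The 2 cytoplasmic actins therefore moved in opposite directions.

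Laminins, the main proteins of basement membranes, fell without exception. All 10 tested genes fell, 7 of them called, with a median of -1.29 and -1.37 in the input libraries. A laminin is a trimer of an alpha, a beta and a gamma chain, and the embryonic form, holds the chains of Lama1, Lamb1 and Lamc1. Lama1, the alpha chain, had 9795 and 9899.7 normalized counts in the RBC libraries against 2829 and 2761 in the Mettl3 KO libraries (log2 fold change -1.82 ± 0.05, adjusted p 8.40e-15). Lamb1, the beta chain, had 2453 and 2469 in RBC against 829 and 927 in Mettl3 KO (log2 fold change -1.49 ± 0.06, adjusted p 6.79e-13). Lamc1, the gamma chain, had 19123 and 18831 in RBC against 8164 and 7966 in Mettl3 KO (log2 fold change -1.23 ± 0.05, adjusted p 4.03e-12). All 3 chains of the trimer were thus more than 2-fold lower. The difference between the knockouts was not of 1 kind, since it passed for 7 genes lower and 2 higher in Mettl3 KO. For Lamb1 the log2 fold change was 0.38 in Mettl14 KO (difference, adjusted p 9.82e-12), and for Lama1 it was -1.52 (adjusted p 0.00209).

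Integrins, the laminin receptors among them, followed in part. Of 19 tested genes 10 fell and 2 rose, or 1 without RBC replicate 2 (median -0.67, -0.17 in the input libraries). Itgb1, the beta chain shared by most integrins, had 7458 and 7637 in RBC against 3648 and 3776 in Mettl3 KO (log2 fold change -1.02 ± 0.05, adjusted p 2.59e-11). Itga6, which pairs with it as a laminin receptor, had 5654 and 5701 in RBC against 2896 and 3129.5 in Mettl3 KO (log2 fold change -0.91 ± 0.05, adjusted p 9.38e-11). Itga3, another laminin-binding alpha chain, had 1748 and 1854 in RBC against 555 and 560.0 in Mettl3 KO (log2 fold change -1.69 ± 0.06, adjusted p 2.14e-13). Both libraries of Mettl3 KO lay below both of RBC for each of these receptor chains.

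Of 40 genes for extracellular matrix 23 fell and 7 rose (median -0.56), 5 laminins among the list, and of 27 genes for matrix proteases and their inhibitors 17 fell, 11 of them called, and 2 rose, or 1 without either replicate 2 (median -0.70). Plaur, the receptor that holds urokinase at the cell surface, had 606 and 669 normalized counts in the RBC libraries against 129.6 and 153 in the Mettl3 KO libraries (log2 fold change -2.18 ± 0.10, adjusted p 4.47e-12). Htra1, a secreted serine protease, had 1429 and 1313 in RBC against 315 and 320.3 in Mettl3 KO (log2 fold change -2.11 ± 0.10, adjusted p 9.11e-12). Mmp2, a gelatinase, had 256 and 269 in RBC against 99.1 and 134 in Mettl3 KO (log2 fold change -1.18 ± 0.13, adjusted p 3.76e-07). Timp2, an inhibitor that binds this gelatinase, went the other way, with 27.6 and 30.6 in RBC against 73.9 and 105 in Mettl3 KO (log2 fold change 1.60 ± 0.24, adjusted p 2.29e-05). In this pair the enzyme fell and its inhibitor rose. Inhibitors of the list moved both ways, since Spint1, Serpinb6a, Serpine2 and Timp3 had negative log2 fold changes. The 10 tested annexins, which bind membranes in the presence of calcium, had 5 members lower and 3 higher (1 without either replicate 1), with Anxa2 at 88.5 and 98.6 in RBC against 26.1 and 10.1 in Mettl3 KO (log2 fold change -2.33 ± 0.28, adjusted p 1.79e-06).

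Genes of epithelial junctions fell. Of 37 tested genes 23 fell, 9 of them called, and 2 rose, or 1 without either replicate 2 (median -0.50 against 0.02 in Mettl14 KO), and the difference between the knockouts passed for 21 lower and 6 higher in Mettl3 KO. Cdh1, the adhesion protein E-cadherin that holds ES cell colonies together, had 3231 and 3069 normalized counts in the RBC libraries against 1276 and 1308 in the Mettl3 KO libraries (log2 fold change -1.29 ± 0.05, adjusted p 1.71e-12). Epcam had 706 and 719 in RBC against 331 and 402 in Mettl3 KO (log2 fold change -0.96 ± 0.08, adjusted p 2.55e-08). F11r, a junctional adhesion molecule, had 1014 and 985 in RBC against 277 and 313 in Mettl3 KO (log2 fold change -1.76 ± 0.07, adjusted p 3.23e-12). In Mettl14 KO over WT26 these 3 genes had log2 fold changes of -0.15, 0.50 and 0.12, and each difference passed its test (adjusted p 1.43e-09, 1.87e-08 and 2.63e-10). Cdh2, N-cadherin, rose to 159 and 171 from 74.7 and 70.0 (log2 fold change 1.19 ± 0.15, adjusted p 3.05e-06). It had the highest log2 fold change in the list of mesenchymal transition genes, which moved both ways. Of the 14 tested there 4 rose, 1 of them called, and 5 fell, 4 of them called (median 0.14). Claudins did not move as 1 family. Cldn6 had 72.4 and 94.6 in RBC against 22.6 and 17.1 in Mettl3 KO (log2 fold change -2.06 ± 0.24, adjusted p 1.23e-06), and Cldn3, at 3 reads in each RBC library, had 3.45 and 2.96 in RBC against 9.57 and 20.1 in Mettl3 KO (log2 fold change 2.15 ± 0.62, adjusted p 0.00699), a pass that was lost without RBC replicate 2 (0.0523) or Mettl3 KO replicate 2 (0.0981). Tjp1, the scaffold of tight junctions, fell by little (-0.29 ± 0.05).

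In the list of gap junctions and cell contact signalling 14 of 26 tested genes fell and 2 rose (median -0.38). Icam1, a ligand of leukocyte integrins, had 3811 and 4026 normalized counts in the RBC libraries against 944 and 906 in the Mettl3 KO libraries (log2 fold change -2.08 ± 0.05, adjusted p 1.03e-15). Bcam, a receptor for laminin, had 4363 and 4303 in RBC against 1104 and 1205 in Mettl3 KO (log2 fold change -1.91 ± 0.05, adjusted p 2.52e-15). Mcam, a related surface protein, had 5780.0 and 5759 in RBC against 1903 and 1897 in Mettl3 KO (log2 fold change -1.60 ± 0.05, adjusted p 3.44e-14). The 2 libraries of each line lay close together for all 3, and the lines were far apart.

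Immediate early genes, which serum and growth factors switch on within minutes, were mostly lower. Of 24 tested genes 15 fell, 7 of them called, and 3 rose, or 1 without either replicate 2 (median -0.68, -0.58 in the input libraries). Junb had 635 and 648 normalized counts in the RBC libraries against 144 and 183 in the Mettl3 KO libraries (log2 fold change -1.98 ± 0.12, adjusted p 2.18e-10). Jun had 191 and 204 in RBC against 98.3 and 87.6 in Mettl3 KO (log2 fold change -1.08 ± 0.14, adjusted p 5.68e-06). Dusp1, a phosphatase that shuts off MAP kinases, had 168 and 195 in RBC against 63.5 and 83.6 in Mettl3 KO (log2 fold change -1.32 ± 0.16, adjusted p 1.48e-06). The group did not move as a whole. Fos had 132 and 138 in RBC against 124 and 132 in Mettl3 KO (adjusted p 0.633) and Egr1 had 556 and 553 in RBC against 532 and 550.0 in Mettl3 KO (adjusted p 0.728), so the best-known members did not pass the test. Fosb, at 24.1 and 35.5 in RBC against 76.5 and 75.5 in Mettl3 KO, rose (log2 fold change 1.33 ± 0.21, adjusted p 3.67e-05), but its input log2 fold change was -1.02. A CArG box was found in 4 of 21 matched promoters (19%), of which 3 genes fell and none rose. The group includes Srf itself, with 369 and 377 in RBC against 239 and 273 in Mettl3 KO (log2 fold change -0.55 ± 0.09, adjusted p 6.31e-05), which encodes the factor that binds the box. Its window and that of Zfp36, whose fall was called, are shown with the box in capitals.
Srf, 17:46556227-46556252, minus strand: ggggctcgCCATATAAGGagcggcct
Zfp36, 7:28379269-28379294, minus strand: aggccgccCCATAAAAGGagaaagct

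Zfp36, an RNA-decay factor among these genes, had 86.2 and 64.1 in RBC against 33.9 and 32.2 in Mettl3 KO (log2 fold change -1.17 ± 0.21, adjusted p 1.65e-04). Targets of YAP and TEAD answer to cell spreading and tension. Of 18 tested genes 9 fell and 4 rose (median -0.26). Ccn2 had 1156 and 1178 in RBC against 274 and 237 in Mettl3 KO (log2 fold change -2.19 ± 0.08, adjusted p 3.40e-13) and Ccn1 had 1542 and 1614 in RBC against 374 and 393 in Mettl3 KO (log2 fold change -2.04 ± 0.07, adjusted p 4.73e-13), while Yap1, at 1076 and 1021 in RBC against 1456 and 1389 in Mettl3 KO, rose by little (log2 fold change 0.44 ± 0.05, adjusted p 2.38e-06). The 2 classic targets were about 4-fold lower. TEAD letters (GGAATG) were found in 6 of 12 matched promoters of the group and in 16.6% of all, and the 6 genes with a match had a median of -0.07 against -0.38 in the 6 without.

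**Figure D3:**
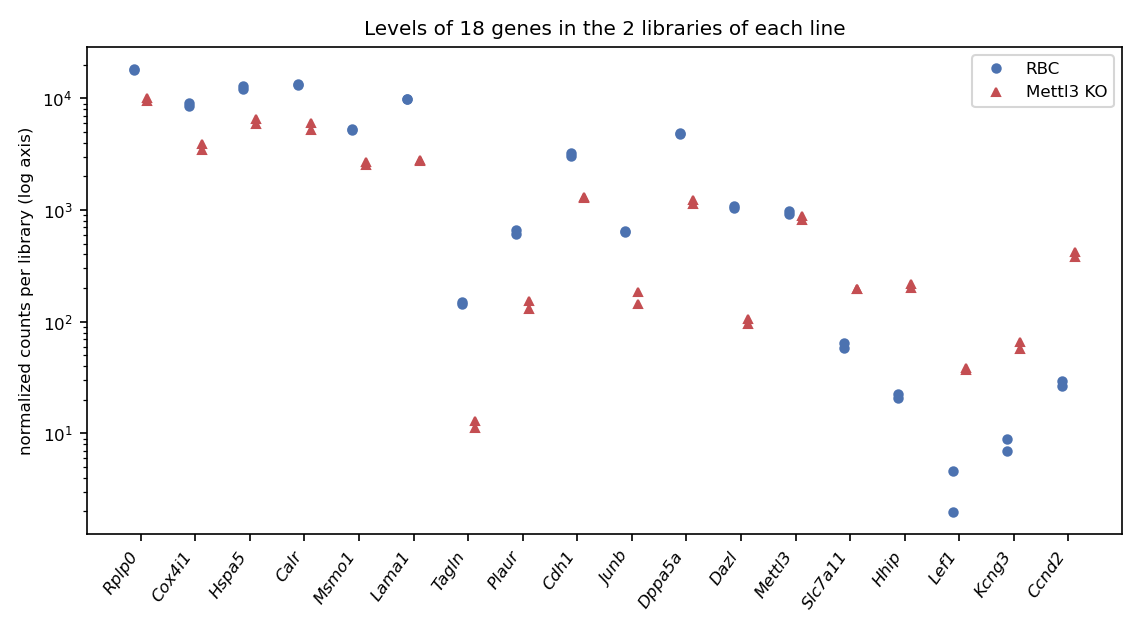
Normalized counts of 18 genes in each library of RBC (blue circles) and Mettl3 KO (red triangles), on a log axis. Mettl3 lies nearly level, the genes to its left fell and those to its right rose, and in each of these the 2 lines do not overlap.

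Potassium channels were the family with the clearest rise. Of 46 tested genes, of 94 in the annotation, 26 rose, 16 of them called, and 3 fell, with a median of 0.78 (0.50 in the input libraries and 0.52 in Mettl14 KO). Most were at a low level, and a gene that is low in 1 line can pass the filter through the other, so the 46 are not all channels of the genome. With DESeq2 15 of them rose, and with a filter of at least 10 reads in every library, which leaves fewer genes, 16 did. Kcng3, a silent subunit that modifies other channels, had 6.90 and 8.87 normalized counts in the RBC libraries against 66.1 and 56.4 in the Mettl3 KO libraries (log2 fold change 2.93 ± 0.34, adjusted p 1.05e-06). Kcnj12, an inward rectifier, had 14.9 and 17.7 in RBC against 67.8 and 82.6 in Mettl3 KO (log2 fold change 2.18 ± 0.24, adjusted p 6.26e-07). Kcnma1, the large-conductance calcium-activated channel, had 16.1 and 14.8 in RBC against 47.0 and 50.4 in Mettl3 KO (log2 fold change 1.65 ± 0.26, adjusted p 3.59e-05). In each of these channels both knockout libraries lay far above both RBC libraries. Against the family, Kcnk2, a channel opened by stretch, had 14.9 and 24.6 in RBC against 3.48 and 2.01 in Mettl3 KO (log2 fold change -2.79 ± 0.56, adjusted p 3.98e-04), and its log2 fold change was 3.66 in Mettl14 KO (difference, adjusted p 2.47e-05). The difference between the knockouts passed for 8 channels lower and 11 higher in Mettl3 KO, near the background on both sides.

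Genes of vesicle release and synapses also leaned up, with 15 of 34 tested higher and 7 lower (median 0.46), or 4 lower without RBC replicate 1 and 3 without Mettl3 KO replicate 1 or with DESeq2. Dlg4, the scaffold of excitatory synapses, had 19.5 and 18.7 in RBC against 60.0 and 67.5 in Mettl3 KO (log2 fold change 1.73 ± 0.26, adjusted p 1.82e-05). Shank2, another such scaffold, had 8.05 and 10.8 in RBC against 39.1 and 32.2 in Mettl3 KO (log2 fold change 1.90 ± 0.34, adjusted p 1.52e-04). Chga, a protein of hormone granules, had 268 and 280.0 in RBC against 102 and 101 in Mettl3 KO (log2 fold change -1.44 ± 0.12, adjusted p 1.60e-08), and The 2 scaffolds were higher in both knockout libraries and the granule protein was lower. Of the 13 neural markers, 2 rose and 3 fell among the 9 tested, and their summed level was 2758 and 2813 in RBC against 2291 and 2366 in Mettl3 KO.

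In the Wnt pathway 17 of 42 tested genes rose, 6 of them called, and 6 fell (median 0.30, 0.13 in the input libraries). Among ligands, Wnt6 had 116 and 115 normalized counts in the RBC libraries against 9.57 and 13.1 in the Mettl3 KO libraries (log2 fold change -3.35 ± 0.24, adjusted p 2.21e-09). Wnt8a had 9.20 and 14.8 in RBC against 39.1 and 36.3 in Mettl3 KO (log2 fold change 1.62 ± 0.33, adjusted p 4.05e-04), so ligands moved both ways. Both called receptors rose, with Fzd2 at 70.1 and 67.0 in RBC against 168 and 189 in Mettl3 KO (log2 fold change 1.38 ± 0.16, adjusted p 8.94e-07) and Fzd1 at 17.2 and 15.8 in RBC against 44.3 and 51.4 in Mettl3 KO (log2 fold change 1.53 ± 0.29, adjusted p 2.39e-04). Of the 4 nuclear partners of beta-catenin 3 rose. Lef1 had 4.60 and 1.97 in RBC against 38.3 and 37.3 in Mettl3 KO (log2 fold change 3.52 ± 0.45, adjusted p 3.29e-06). Tcf7 had 97.7 and 104 in RBC against 243 and 225 in Mettl3 KO (log2 fold change 1.21 ± 0.13, adjusted p 2.86e-07). Tcf7l1, the repressor of the family, had 206 and 144 in RBC against 423 and 336 in Mettl3 KO (log2 fold change 1.14 ± 0.15, adjusted p 5.19e-06), while Tcf7l2 had 162 and 135 in RBC against 137 and 105 in Mettl3 KO and did not pass (adjusted p 0.146, and 0.0316 without Mettl3 KO replicate 1). Ctnnb1, which encodes beta-catenin, fell (log2 fold change -0.82 ± 0.05, adjusted p 5.50e-10). Axin2, the usual target gene of the pathway, had 74.7 and 73.9 in RBC against 77.4 and 105 in Mettl3 KO and did not pass (adjusted p 0.188), though it did without Mettl3 KO replicate 1 (0.0379). Components of the pathway passed the test in both directions, and its usual reporter gene did not pass.

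The Hedgehog pathway showed 8 of 19 tested genes higher and 2 lower (median 0.40), or 1 lower without Mettl3 KO replicate 2. Dhh, a ligand, had 27.6 and 24.6 in RBC against 13.0 and 7.05 in Mettl3 KO (log2 fold change -1.33 ± 0.39, adjusted p 0.00762), and without Mettl3 KO replicate 2 it did not pass (adjusted p 0.0718). Ptch1, the receptor and a target, had 640.3 and 624 in RBC against 1304 and 1343 in Mettl3 KO (log2 fold change 1.07 ± 0.06, adjusted p 9.79e-11). Smo, the signal transducer, had 213 and 227 in RBC against 446 and 513 in Mettl3 KO (log2 fold change 1.12 ± 0.11, adjusted p 9.00e-08). Hhip, a ligand trap and target, had 20.7 and 22.7 in RBC against 217 and 198 in Mettl3 KO (log2 fold change 3.25 ± 0.19, adjusted p 1.66e-10). Hhip rose by far the most, with no overlap between the lines. Gli1, the target most used as a readout, had 459 and 444 in RBC against 479 and 423 in Mettl3 KO (adjusted p 0.981), and Gli2 and Gli3 rose (0.58 ± 0.11 and 0.58 ± 0.09). Letters of a GLI site (TGGGTGGTC) were found in 0 of 16 matched promoters and in 0.289% of all, which says only that they are not in these windows. Hhip had a log2 fold change of -0.52 in Mettl14 KO (difference, adjusted p 1.53e-07), and Ptch1 of 0.25 (adjusted p 6.00e-07).

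Notch genes were split, 8 of 30 higher and 9 lower (5 with scaling by library size). The called rises were in modifiers, the glycosyltransferase Mfng (log2 fold change 2.08 ± 0.22, adjusted p 3.39e-07) and the deltex ligases Dtx1 with 94.3 and 75.9 in RBC against 276 and 309 in Mettl3 KO (log2 fold change 1.79 ± 0.13, adjusted p 4.28e-09) and Dtx4. Hes1, the target gene, fell (log2 fold change -0.62 ± 0.11, adjusted p 1.35e-04). Notch1, the receptor, had 2169 and 2082 in RBC against 2023 and 1946 in Mettl3 KO (adjusted p 0.0799). Of 38 genes of TGF-beta family signalling 12 rose and 11 fell. Its largest change was Id1, a direct target of BMP signals, with 185 and 168 in RBC against 20.9 and 24.2 in Mettl3 KO (log2 fold change -2.97 ± 0.19, adjusted p 5.42e-10). Bmp4, a ligand counted outside this list, had 1092 and 1048 in RBC against 302 and 354 in Mettl3 KO (log2 fold change -1.71 ± 0.08, adjusted p 7.32e-12). Smad6, an inhibitor of BMP signals and itself a target of them, went the other way with 34.5 and 39.4 in RBC against 74.8 and 89.6 in Mettl3 KO (log2 fold change 1.14 ± 0.22, adjusted p 2.71e-04).

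Receptor tyrosine kinases leaned down, with 19 of 38 tested lower and 7 higher. The Fgf receptors did not move together. Fgfr2 had 82.8 and 71.0 normalized counts in the RBC libraries against 294 and 311 in the Mettl3 KO libraries (log2 fold change 1.98 ± 0.13, adjusted p 1.04e-09). Fgfr3 had 151 and 144 in RBC against 44.3 and 58.4 in Mettl3 KO (log2 fold change -1.53 ± 0.19, adjusted p 2.08e-06). Fgfr4 had 93.1 and 87.7 in RBC against 34.8 and 28.2 in Mettl3 KO (log2 fold change -1.51 ± 0.19, adjusted p 3.85e-06). Fgfr2, which overlaps several other transcripts, rose while Fgfr3 and Fgfr4 fell. Fgfr1, the most highly counted of the 4, fell by little (-0.26 ± 0.05), though not with scaling by library size. Of 9 tested Fgf ligands 4 rose, all of them called, and 2 fell. With DESeq2 2 rose, and with at least 10 reads in every library 1 did. Fgf1 had 93.1 and 98.6 in RBC against 273 and 221 in Mettl3 KO (log2 fold change 1.37 ± 0.14, adjusted p 1.91e-07), while Fgf4, the ligand that ES cells are known to make, fell to 1913 and 2004 from 2906 and 3078 (log2 fold change -0.61 ± 0.05, adjusted p 7.08e-09).

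Genes of the amino acid stress response, the targets of the factor ATF4, rose more often than they fell. Their summed level did not rise, at 45189 and 45430 in RBC against 43264 and 44561 in Mettl3 KO. Of 36 tested genes 18 rose, 5 of them called, and 9 fell (median 0.21), or 4 fell without RBC replicate 2 and with scaling by library size and 5 with each chromosome's median taken out. Slc7a11, the cystine importer, had 58.6 and 64.1 normalized counts in the RBC libraries against 195 and 195 in the Mettl3 KO libraries (log2 fold change 1.66 ± 0.14, adjusted p 1.36e-08). Pycr1, an enzyme of proline synthesis, had 85.1 and 74.9 in RBC against 157 and 190.4 in Mettl3 KO (log2 fold change 1.11 ± 0.14, adjusted p 2.78e-06). Chac1, which breaks down glutathione, had 70.1 and 85.8 in RBC against 140.0 and 142 in Mettl3 KO (log2 fold change 0.85 ± 0.15, adjusted p 1.50e-04). Both knockout libraries exceeded both control libraries for each. Atf4 itself rose (log2 fold change 0.46 ± 0.05, adjusted p 6.11e-07). Asns, asparagine synthetase, had 2061 and 2239 in RBC against 2191 and 2370.0 in Mettl3 KO (adjusted p 0.197, and 0.0488 without Mettl3 KO replicate 1), so that 1 of the standard targets did not pass the test. These genes are known for the C/EBP-ATF response element, and the windows of the 5 largest rises with the letters TTGCATCA, or TGATGCAA on the other strand, are shown with the letters in capitals.
Slc7a11, 3:50443644-50443669, minus strand: ctggagaatTTGCATCAtcatgcagc
Vldlr, 19:27216811-27216836, plus strand: cagcaatagTTGCATCAgcgctccta
Pycr1, 11:120643835-120643860, minus strand: ccctgtgtaTGATGCAAtgcacaagg
Chac1, 2:119351040-119351065, plus strand: tccctgccgTTGCATCActcctgcca
Slc1a4, 11:20332701-20332726, minus strand: cctcctgcgTTGCATCAtctccagcc

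The letters were found in 7 of 30 matched promoters (23.3%) and in 1.03% of all, and they overlapped no other motif searched. As the list was made of known ATF4 targets, the larger share comes with the list and not from these data. Of the 7 genes with a match 6 rose and 1 fell, with a median of 0.85, and of the 23 without 11 rose and 6 fell, with a median of 0.21. Vldlr, a lipoprotein receptor, had 89.7 and 116 in RBC against 267 and 311 in Mettl3 KO (log2 fold change 1.47 ± 0.13, adjusted p 2.14e-08). Aars, an alanyl tRNA synthetase, was the member with the letters that fell, with 5991 and 6138 in RBC against 4487 and 4599 in Mettl3 KO (log2 fold change -0.42 ± 0.05, adjusted p 2.42e-06).

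Genes of the oxidative stress response passed the test in both directions, 16 of 31 higher and 12 lower, a larger share on each side than the background. Cbr3, a carbonyl reductase, had 71.3 and 71.0 normalized counts in the RBC libraries against 229 and 248 in the Mettl3 KO libraries (log2 fold change 1.74 ± 0.13, adjusted p 4.11e-09). Gstm2, a glutathione transferase with close paralogs, had 26.4 and 30.6 in RBC against 82.6 and 105 in Mettl3 KO (log2 fold change 1.70 ± 0.21, adjusted p 2.71e-06). Sod1, cytosolic superoxide dismutase, had 3673 and 3779 in RBC against 1494 and 1769.7 in Mettl3 KO (log2 fold change -1.19 ± 0.06, adjusted p 4.31e-11). Gpx1, glutathione peroxidase, had 3179.7 and 3381 in RBC against 1595 and 1635 in Mettl3 KO (log2 fold change -1.02 ± 0.05, adjusted p 1.29e-11). Nfe2l2, which encodes NRF2, fell by little (-0.27 ± 0.06), though not with scaling by library size.

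Lysine demethylases and methyltransferases leaned up by small amounts, as did zinc finger Zfp genes. Of 33 lysine demethylases and methyltransferases 17 rose, 1 of them called, and 4 fell (median 0.17, 0.02 in the input libraries), or 1 fell without RBC replicate 1 or Mettl3 KO replicate 2 and with scaling by library size. Kmt2d, which methylates enhancers, had 1616 and 1389 in RBC against 3591 and 2632 in Mettl3 KO (log2 fold change 1.05 ± 0.12, adjusted p 5.46e-07). Of 358 tested Zfp genes 127 rose and 65 fell, or 39 fell with scaling by library size (median 0.15, 0.10 in the input libraries). The difference between the knockouts passed for 129 higher and 36 lower in Mettl3 KO. Zfp57, which protects methylation at imprinted loci, was a large exception at 10047 and 10160.0 in RBC against 3280.1 and 3384 in Mettl3 KO (log2 fold change -1.60 ± 0.05, adjusted p 1.59e-13), and its input change was -1.61. Zfp618 rose to 133 and 132 from 19.5 and 22.7 (log2 fold change 2.64 ± 0.20, adjusted p 5.98e-09). Of the partners of METTL3 in the writer complex, Rbm15, an RNA-binding subunit, rose (log2 fold change 0.69 ± 0.05, adjusted p 1.89e-09), and Wtap, Virma and Zc3h13 rose by 0.24, 0.25 and 0.26 on the log2 scale. The nuclear reader Ythdc1 had 3087 and 3098 in RBC against 3005 and 3138 in Mettl3 KO (adjusted p 0.872).

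The ES cell markers, whose sum is given above, fell one by one as well, 13 of 15 tested lower and 2 higher (median -0.42 against -0.55 in Mettl14 KO). Dppa5a, an RNA-binding protein of pluripotent cells, had 4792 and 4948 normalized counts in the RBC libraries against 1144 and 1237 in the Mettl3 KO libraries (log2 fold change -2.03 ± 0.06, adjusted p 2.14e-14). Tdgf1, the Nodal co-receptor, had 10308 and 10745 in RBC against 4058 and 4392 in Mettl3 KO (log2 fold change -1.32 ± 0.06, adjusted p 4.47e-12). Lin28a, which blocks maturation of let-7, had 979 and 1045 in RBC against 489 and 507 in Mettl3 KO (log2 fold change -1.03 ± 0.07, adjusted p 1.31e-09). Klf4 and Klf2, factors of the naive state, went the other way. Klf4 rose to 1868 and 1852 from 1255 and 1230.3 (log2 fold change 0.58 ± 0.05, adjusted p 3.95e-08), and Klf2 to 537 and 592 from 359 and 305 (log2 fold change 0.77 ± 0.09, adjusted p 1.43e-06). Sox2 and Nanog changed by -0.29 and -0.21 on the log2 scale, and neither passed with scaling by library size. Sox2 did not pass without Mettl3 KO replicate 1 either (adjusted p 0.0520). Of 5 tested markers of the rare 2-cell-like state 4 fell and none rose, though 3 fell without RBC replicate 2 and 2 without any other single library. The summed level of the 5 was 123 and 93.7 in RBC against 33.9 and 41.3 in Mettl3 KO. Zscan4d, whose family has near-identical copies, had 47.1 and 35.5 in RBC against 13.9 and 15.1 in Mettl3 KO (log2 fold change -1.49 ± 0.30, adjusted p 3.93e-04).

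Some genes of germ cells were much lower. Of 14 tested genes of the piRNA pathway, which silences transposons in the germ line, 7 fell, 6 of them called, and 2 rose, while the median was 0.67 in Mettl14 KO and the difference passed for 9 genes, all lower in Mettl3 KO. Asz1, a mitochondrial anchor of the pathway, had 149 and 123 normalized counts in the RBC libraries against 19.1 and 13.1 in the Mettl3 KO libraries (log2 fold change -3.05 ± 0.22, adjusted p 2.38e-09). Piwil2, a PIWI protein, had 1099 and 1167 in RBC against 519 and 497 in Mettl3 KO (log2 fold change -1.16 ± 0.07, adjusted p 1.70e-10). Mael had 106 and 101 in RBC against 20.9 and 34.2 in Mettl3 KO (log2 fold change -1.92 ± 0.23, adjusted p 1.24e-06). In Mettl14 KO over WT26 Asz1 had a log2 fold change of 2.86 (difference, adjusted p 6.92e-11). The oocyte gene Nlrp4c had 70.1 and 63.1 in RBC against 6.09 and 7.05 in Mettl3 KO (log2 fold change -3.32 ± 0.32, adjusted p 9.51e-08) and a log2 fold change of 3.27 in Mettl14 KO (difference, adjusted p 1.25e-09). Of 14 tested NLR and Toll-like receptor genes 9 fell and none rose (1 without Mettl3 KO replicate 2), several of them NLR genes known from oocytes. Of 13 heavy chains of axonemal dyneins, the motors of cilia and flagella, 5 fell, all called, and 2 rose (3 fell without Mettl3 KO replicate 1, and 1 rose without it or RBC replicate 1), with Dnah8, the sperm flagellum form, at 1562 and 1544 in RBC against 433 and 373 in Mettl3 KO (log2 fold change -1.94 ± 0.07, adjusted p 2.72e-13).

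Genes of growth and of the response to DNA damage mostly moved by small amounts. Of 53 genes of DNA replication 31 fell and 7 rose, none called (median -0.26), or 20 and 16 with scaling by library size, with Pcna, the polymerase clamp, at 1843 and 1913 in RBC against 1124 and 1282 in Mettl3 KO (log2 fold change -0.64 ± 0.06, adjusted p 4.76e-08). Of 51 genes of mitosis 21 fell and 8 rose, none called (median -0.11), and scaling by library size turned this to 14 and 20 (5 rose without RBC replicate 1). Targets of p53 had 20 of 35 lower, 4 of them called, and 3 higher (median -0.30, and 6 higher with that scaling). The lowest log2 fold change among these targets was -1.56. Mdm2 had 2537 and 2467 in RBC against 1504 and 1519.9 in Mettl3 KO (log2 fold change -0.73 ± 0.04, adjusted p 3.20e-10). Trp53, which encodes p53, had 1304 and 1206 in RBC against 1183 and 1227 in Mettl3 KO (adjusted p 0.476).

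Several large groups stayed near the background of 24.9% higher and 28.4% lower. In DNA repair 18 of 55 genes rose and 15 fell, in the Mediator 7 and 5 of 28, in BAF and NuRD remodellers 12 and 9 of 40, in apoptosis 10 and 9 of 36, and among solute carriers 67 and 83 of 243. Their medians lay between -0.04 and 0.12. Scaling by library size raised the rises to 12 in the Mediator and 19 in apoptosis and lowered the falls in DNA repair to 7, and without RBC replicate 2 the rises were 3 in apoptosis and 11 in DNA repair. The nuclear exosome and RNA decay list had 20 of 52 lower and 14 higher (median -0.11), or 12 and 17 with scaling by library size (9 higher without Mettl3 KO replicate 1), which also turned the solute carriers to 56 lower and 94 higher. Across 101 groups of at least 10 tested genes, the median in the input libraries had the same sign as in RNA-seq for 88. Marker sets, histone genes and the families of microRNA, small nucleolar RNA and its hosts, predicted Gm genes and Rik transcripts were left out of this count.

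**Figure D4:**
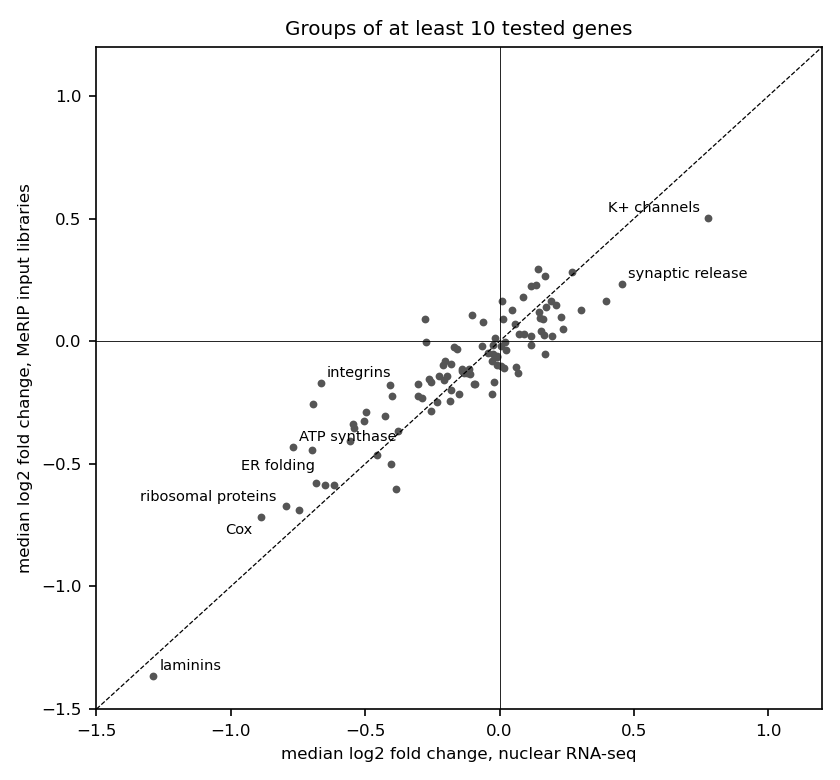
Median log2 fold change (Mettl3 KO over RBC) of 101 groups of at least 10 tested genes in nuclear RNA-seq (horizontal) and in the input libraries of the m6A immunoprecipitation (vertical), with the line of equality dashed. For 88 groups the signs are the same, with laminins at -1.29 and -1.37 and potassium channels at 0.78 and 0.50. Marker sets, histone genes and the families of microRNA, small nucleolar RNA and its hosts, predicted Gm genes and Rik transcripts are left out.

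By annotated class, 2 kinds of poorly characterized transcripts rose often. Of 812 tested genes of the class TEC, whose status awaits experimental proof, 310 rose and 45 fell, with a median of 0.46, and of 146 sense intronic transcripts 49 rose and 8 fell, with a median of 0.36. In the input libraries the medians were 0.16 and 0.03. Of the TEC genes 721, and of the sense intronic ones all 146, overlap another gene, and whether strand was used in counting is not stated, so their reads cannot be told from those of the genes around them. Of 418 long intergenic RNAs 114 fell (27.3%), near the background of 28.4%, and 70 rose (16.7%), fewer than the background of 24.9%, with a median of -0.09. Protein-coding genes had 3413 of 13084 higher and 4072 lower.

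The gene cluster of the miR-290 family, the main microRNAs of ES cells, lies on chromosome 7 in a short stretch. All 7 of its tested genes fell, with a median of -0.90 and, in the input libraries, of -0.77. Mir291b had 989.8 and 1117 normalized counts in the RBC libraries against 531 and 600.3 in the Mettl3 KO libraries (log2 fold change -0.90 ± 0.08, adjusted p 1.68e-08). Mir294 had 245 and 264 in RBC against 141 and 167 in Mettl3 KO (log2 fold change -0.73 ± 0.11, adjusted p 3.38e-05). Both lines were separate at every gene of the cluster. Reads counted there come from the primary transcript, and mature microRNAs were not measured. The annotation of Nlrp12 overlaps most of the cluster, and Nlrp12 itself had 12.6 and 16.8 in RBC against 13.0 and 18.1 in Mettl3 KO (adjusted p 0.926). The 3p sequences, from RefSeq on GRCm38.p6, are shown for the 6 genes whose entry was found, with the seed (bases 2 to 8) in capitals, because the seed decides which messages a microRNA pairs with.
mmu-miR-290a-3p: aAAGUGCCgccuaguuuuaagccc
mmu-miR-291a-3p: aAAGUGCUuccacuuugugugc
mmu-miR-291b-3p: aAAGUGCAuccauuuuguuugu
mmu-miR-293-3p: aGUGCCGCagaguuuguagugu
mmu-miR-294-3p: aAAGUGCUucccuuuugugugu
mmu-miR-295-3p: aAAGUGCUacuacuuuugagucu

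The seed AAGUGCU was shared by miR-291a, miR-294 and miR-295, 3 of the 6, whose genes had log2 fold changes of -0.98, -0.73 and -0.82. Most microRNA genes that fell lay in 1 region. The 38 tested inside the run on chromosome 12 described next all fell. Each was at 3 reads or fewer in both Mettl3 KO libraries, and with every gene held at the lower bound this allows their median was -3.17. Of the 113 outside it, the miR-290 cluster included, 8 rose and 15 fell, with a median of -0.01.

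Neighbouring genes that were called in the same direction formed 17 runs of at least 4, 7 higher and 10 lower. The longest, of 61 genes from Begain to Dio3 (GRCm38 12:109032187-110281097), is the imprinted Dlk1-Dio3 region. In 53 of the 61 both Mettl3 KO libraries were at 3 reads or fewer, and with these held at their lower bounds the median log2 fold change of the run was -3.25. Meg3, its maternal noncoding RNA, had 5814 and 5391 normalized counts in the RBC libraries against 30.4 and 27.2 in the Mettl3 KO libraries (log2 fold change -7.59 ± 0.08, adjusted p 4.00e-21). Rian, from the same strand, had 11712 and 12184 in RBC against 78.3 and 87.6 in Mettl3 KO (log2 fold change -7.17 ± 0.08, adjusted p 4.00e-21). Little RNA of this locus was left in either Mettl3 KO library, and in Mettl14 KO over WT26 Meg3 had a log2 fold change of -0.65 (difference, adjusted p 6.26e-19). Dlk1, the paternally expressed protein gene of the locus, was low in both lines, at 19.5 and 10.8 in RBC against 3.48 and 5.04 in Mettl3 KO (log2 fold change -1.80 ± 0.55, adjusted p 0.0105), and it did not pass without RBC replicate 1 or Mettl3 KO replicate 1 (adjusted p 0.134 and 0.0829).

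The other runs were of 4 or 5 genes. Lower were 4 kallikreins, secreted serine proteases, on chromosome 7 (7:43774604-44229618), with Klk8 at 182 and 179 in RBC against 58.3 and 53.4 in Mettl3 KO (log2 fold change -1.69 ± 0.16, adjusted p 8.54e-08), Crym to Gm9165 on chromosome 7, Ptprk to 9330159F19Rik on chromosome 10, Clca3a2 to Odf2l on chromosome 3, Platr16 to Smarca5-ps on chromosome 4, and 3 runs on chromosome 1 from Lax1 to Chit1, Dusp27 to Ildr2 and Gm37145 to Tagln2. A further lower run on chromosome 1 (1:24612775-24616197) holds 5 predicted genes alone. Higher were runs around Fzd1, around Slit2 and around Tcf7l1, the run from Mir29a to 5330406M23Rik that includes Lncpint on chromosome 6, and 3 runs of predicted genes on chromosomes 1, 5 and 9. In the 3 runs named for Fzd1, Slit2 and Tcf7l1 most other members are predicted transcripts next to or within those genes, so a run is not a count of independent changes.

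Medians also differed between whole chromosomes. On the log2 scale chromosome 8 had a median change of -0.31, chromosome 12 of -0.22, chromosome 14 of -0.21 and chromosome 10 of -0.18, while chromosome 19 had 0.31, chromosome 18 had 0.25, chromosome 11 had 0.22, chromosome 5 had 0.20 and chromosome 15 had 0.20. In the input libraries the same chromosomes had -0.30, -0.26, -0.28 and -0.19, and 0.26, 0.18, 0.21, 0.15 and 0.21. The input libraries are separate libraries of the same lines, and the sign was kept on all 9. In the Mettl14 KO clone the largest departures were on chromosome 4 (-0.32), chromosome 3 (-0.23) and chromosome 11 (0.17). RBC itself differed from WT26, the control of the Mettl14 KO clone, by a median of 0.46 on chromosome 1 and 0.40 on chromosome 14, and by between -0.10 and 0.06 on the other autosomes. Chromosome number in the lines was not measured. With each chromosome's median taken out, 78 of the 79 ribosomal protein genes, 19 of the 25 ER folding genes, 37 of the 51 actin genes and 9 of the 10 laminins still fell, and 26 of the 46 potassium channels rose.

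**Figure D5:**
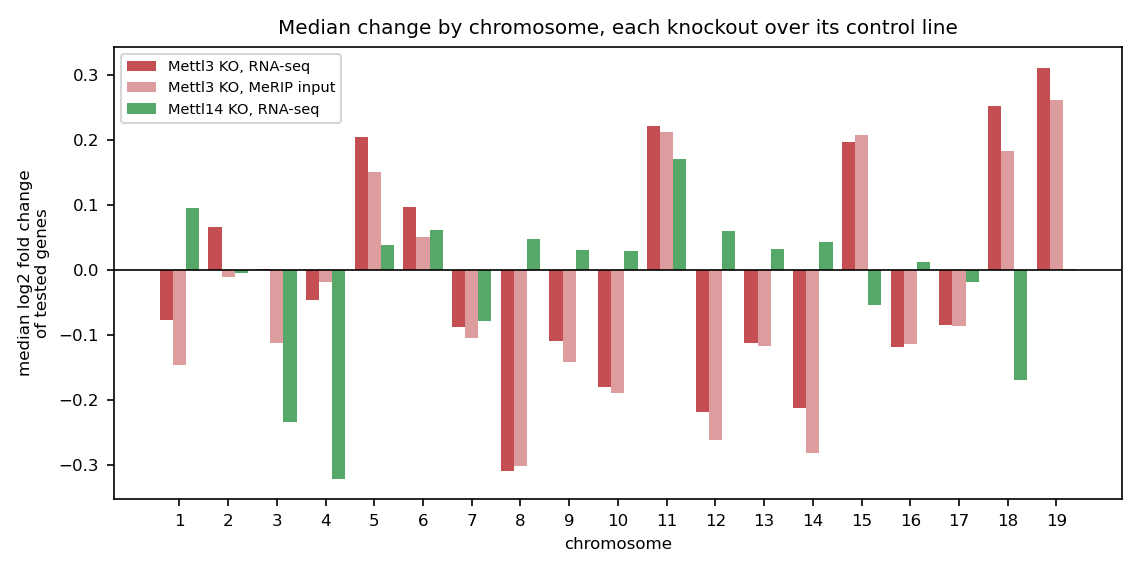
Median log2 fold change of the tested genes of each autosome, for Mettl3 KO over RBC in RNA-seq (dark red) and in the input libraries (light red), and for Mettl14 KO over WT26 in RNA-seq (green). Chromosomes 8 and 19 lie at -0.31 and 0.31 in RNA-seq and at -0.30 and 0.26 in the input, and chromosome 4 is lowest in Mettl14 KO at -0.32.

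Some large changes lay outside every list and family. Among protein-coding genes whose mean reached 200 normalized counts and whose lines did not overlap, 69 were called higher and 153 lower. Germ cell regulators led the falls. Dazl, an RNA-binding protein that licenses germ cells, had 1094 and 1049.9 normalized counts in the RBC libraries against 105 and 95.7 in the Mettl3 KO libraries (log2 fold change -3.41 ± 0.08, adjusted p 1.26e-15). Sohlh2, a transcription factor of early germ cells, had 741 and 812 in RBC against 87.0 and 82.6 in Mettl3 KO (log2 fold change -3.19 ± 0.09, adjusted p 2.14e-14). Sycp1, which joins chromosomes in meiosis, had 740.3 and 735 in RBC against 182 and 138 in Mettl3 KO (log2 fold change -2.20 ± 0.11, adjusted p 2.11e-11). Secreted and surface proteins followed, with Pros1, the anticoagulant protein S, at 3949 and 4232 in RBC against 717 and 795 in Mettl3 KO (log2 fold change -2.44 ± 0.06, adjusted p 7.52e-16), Tfpi, another inhibitor of coagulation, at 2849.8 and 2968 in RBC against 628 and 647 in Mettl3 KO (log2 fold change -2.19 ± 0.05, adjusted p 4.96e-16), and Pla2g7, Gpa33, Msln, Mmrn2 and Cd38 between -3.09 and -2.20. Both anticoagulants were more than 4-fold lower. Ppm1j, Hydin, Neb, Sept1 and Gm21060 complete the 15 largest falls.

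Ccnd2, cyclin D2, which drives entry into the cell cycle, had the largest rise of this set, with 26.4 and 29.6 normalized counts in the RBC libraries against 378 and 419 in the Mettl3 KO libraries (log2 fold change 3.82 ± 0.16, adjusted p 3.67e-12). Lefty1, a secreted inhibitor of Nodal, had 125 and 151 in RBC against 1029.6 and 1106 in Mettl3 KO (log2 fold change 2.94 ± 0.10, adjusted p 1.22e-13), while Nodal itself fell (log2 fold change -0.72 ± 0.06, adjusted p 4.34e-08). Rnf213, a large ubiquitin ligase, had 1407 and 1367 in RBC against 5109.8 and 4768 in Mettl3 KO (log2 fold change 1.83 ± 0.06, adjusted p 2.46e-14). It was the most highly counted of the 15 rises, and both of its knockout libraries were more than 3-fold above both control libraries. Tet3, which oxidizes methylated cytosine in DNA, had 237 and 207 in RBC against 658 and 603 in Mettl3 KO (log2 fold change 1.51 ± 0.09, adjusted p 3.01e-10). Prrt3, Megf11, St8sia1, Celsr2, D1Ertd622e, D630045J12Rik, Setbp1, Vrk2, Sh3pxd2b, Marveld1 and Fhod3 complete the 15, with log2 fold changes from 2.22 to 1.39.

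Long genes and short genes differed in their balance. In 5 equal bins of gene length over protein-coding genes, the shortest (up to 8514 bases) had a median of -0.15, with 36.3% lower and 17.4% higher, and the longest (from 73461 bases) a median of 0.07, with 25.9% lower and 34.1% higher. In the input libraries the 2 medians were -0.06 and -0.03, and in Mettl14 KO -0.13 and 0.13. In 5 such bins of level, 50.9% of the most highly counted genes fell and 24.1% rose (median -0.14). The part of length and level in the group results was not tested.

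Genes called in either direction were enriched for m6A in RBC about as often as the others. The log2 ratio of m6A immunoprecipitate over input in RBC had a median of 1.10 over 688 called-higher genes, of 0.98 over 814 called-lower genes and of 0.83 over 11497 protein-coding genes that were not called, and 40.4%, 37.1% and 39.8% were enriched, where the background is 39.6%. In 5 bins of that ratio the median RNA-seq change went from -0.06 in the lowest to 0.05 in the highest, and in the input libraries from -0.13 to 0.09. The input libraries enter both sides of the last pair of values, which is a description over genes. In Mettl3 KO the same log2 ratio had medians of 0.77, 0.87 and 0.71 over genes called higher, lower and not called. Enrichment in RBC thus includes signal that was also present in the knockout line, and the part placed by METTL3 was not tested. The share enriched for m6A in RBC differed from group to group. In RBC 26 of 79 ribosomal protein genes, 0 of 10 laminins and 8 of 51 actin genes were enriched, against 20 of 24 immediate early genes and 315 of 358 Zfp genes.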

How the data were processed

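The authors deposited raw read counts per gene, in 1 table for RNA-seq (8 libraries, 4 groups of 2) and 1 for the inputs and m6A immunoprecipitates. Libraries were ribosomal RNA-depleted and stranded. The submitters' processing notes name FastQC, cutadapt 1.8.1, STAR 2.6.0c, DESeq2 1.26.0 and GRCm38. The counting tool and strand setting of the RNA-seq table are not given in the sources used here, so reads shared by overlapping genes, 100 of the named genes among them, cannot be assigned with certainty.

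Counts were tested with edgeR 4.0.16 (filterByExpr, quasi-likelihood test) in R 4.3.3 with DESeq2 1.42.0 median-of-ratios size factors, with all 8 RNA-seq libraries in 1 fit, and p-values were adjusted by Benjamini-Hochberg over 17021 genes. The SE of a log2 fold change is its size divided by the square root of the test's F. It therefore rests on the spread estimated over all 8 libraries, not on the 2 libraries per line alone. The difference between the knockouts is (Mettl3 KO minus RBC) minus (Mettl14 KO minus WT26) in the same fit. Of 47937 gene identifiers 47224 matched GENCODE M21. In medians over runs and microRNA genes, a gene at 3 reads or fewer in each library of a line was held at the lower bound this allows per library. The alternatives were another test or scaling, other filters, other sets of libraries or genes, a replicate block, each replicate left out, and the chromosome median taken out, which was chosen after seeing the data.

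The members, and the 43 lists, 7 marker sets and 77 families they were sorted into, were chosen with earlier results of these data known. Named genes are Mettl3 and Mettl14, up to 8 members per group with the largest changes that passed, defining members that did not, the 15 largest rises and falls outside the groups, and runs of at least 4 neighbours. Other genes, named as the best known of a group or for a promoter match, were chosen after their values were seen. Scripts were tested on simulated data. Values of some single genes are not reported here.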

Additional observations from a re-analysis of the deposited data

How the results depend on the processing

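Of 210 named genes, 3 changed sign with a pass of the test before or after. With 1 library left out, Lars2 (-3.78 with all) lay between -6.94 and 2.86 and Gm42418 (-0.76 with all) between -1.41 and 0.44 on the log2 scale, both positive without RBC replicate 1, and with scaling by library size Ythdc1, which had not passed, went from -0.01 to 0.14. Of 2496 gene values under 12 alternatives 24 lost and 13 gained a pass of the test, most with a library left out, with DESeq2's Wald test or with scaling by library size. Leaving out 1 library ended the pass of Begain (Mettl3 KO replicate 1), Chit1 and Dio3 (RBC replicate 2). A filter of at least 10 reads in every library lowered the RNA-seq calls to 522 higher and 651 lower, since it leaves fewer genes to test, and the adjusted p alone gave 4060 and 4628. Of the lead group counts, the potassium channels that rose went from 26 to 15 with DESeq2 and to 16 with that filter, and the Wnt genes that rose from 17 to 26 with scaling by library size. Of 1430 group counts 1324 stayed within 1.5 times, and in 85 of the other 106 the count was the smaller direction of a group. The input calls depended on the fit. They rose to 117 higher and 279 lower with DESeq2, and without 1 library they fell to between 2 and 6 higher and between 7 and 51 lower, with the lowest values without RBC replicate 1 (2 higher) and Mettl3 KO replicate 1 (7 lower). The cause was not tested.

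The labels give the lines the same replicate numbers but do not say that a number marks a shared day. Over 11346 genes the deviation of replicate 1 from its group mean correlated between the lines (r = 0.473, a description, with 2 pairs). With a replicate block the RNA-seq calls were 959 higher and 1183 lower, the input calls 112 and 266, and the adjusted p of Mettl3 was 0.0465. The other group counts printed for the lead groups were within 1.5 times of the unblocked ones. Without a filter on low counts edgeR gave every gene the spread of the trend and none of its own (adjusted p of Gm42418 8.09e-194, log2 fold change -0.76), so results kept there say nothing about stability. The common biological coefficient of variation was 0.273 over the input and immunoprecipitated libraries and 0.0625 in RNA-seq. With 2 libraries per line a small change is seen only where the count is high.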
